A study of Homo sapiens with 6 samples.

Results

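Wnt signalling was described here through 35 genes: receptors, co-receptors, a ligand, antagonists, cytoplasmic regulators, transcription factors and target genes of the pathway. The genes were a given list of symbols, matched to the Ensembl identifiers of the count tables, and all 35 were found among 62696 gene rows. Of these, 28 had enough reads for the test in each fit, and LGR5, DKK1, DKK3, NOTUM, APCDD1, TCF7L1 and SP5 did not. The series compared C4-2 cells, a human line of castration-resistant prostate cancer, to ask what loss of the kinase CDK12 does to such cells. The 3 CDK12KO libraries came from C4-2 cells in which CDK12 was knocked out with CRISPR-Cas9, and the 3 VEC libraries from the control line, whose genotype is given as WT. Both lines were untreated and kept in RPMI with added fetal bovine serum. The labels do not say whether the libraries of a line were separate cultures, whether the knockout line was 1 clone, or which part of CDK12 was edited. The p-values therefore measure spread between libraries only, possibly technical, and other differences between the lines cannot be told apart from the loss of CDK12.

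In canonical Wnt signalling a secreted Wnt binds a Frizzled receptor and its co-receptor LRP5 or LRP6. Dishevelled proteins then hold back the complex of AXIN, APC, GSK3 and casein kinase 1 alpha that marks beta-catenin for destruction, and beta-catenin enters the nucleus and activates genes with TCF/LEF factors. Several of those targets, such as AXIN2, NKD1, RNF43 and ZNRF3, feed back to dampen the pathway. In the prostate the pathway is known for its part in development and in advanced, castration-resistant disease.

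The letters to which TCF/LEF factors bind are commonly CTTTGAT or CTTTGAA, and the promoters that hold them are shown because they belong to genes that were almost silent in these cells. RefSeq promoters of GRCh38.p14, from 250 bases before to 50 bases after the start, were matched by symbol for 23 of the 35 genes. Searched on both strands, the motifs stood in 2 of the 23 (8.70%), against 2409 of 35116 promoters of that length (6.86%). The genes without a matched promoter included the target genes AXIN2, NKD1, ZNRF3, LGR5, NOTUM and ASCL2, so this share says little about the targets. Some windows lay at a start inside the gene, such as that of TCF7L2 (chr10:113129021-113129320), a plus-strand gene that begins at 112950250. SP5 (chr2:170715087-170715386, plus strand) had 3 matches, beginning 148, 109 and 84 bases before the start, the middle one as CTTTGAT and the outer ones as CTTTGAA on the opposite strand, which reads TTCAAAG below. DKK1 (chr10:52314031-52314330, plus strand) had 1 match, 95 bases before the start. FZD5 (chr2:207769857-207770156, minus strand), a receptor gene that fell in CDK12KO cells without CDK12KO2, is set beside them and held no match in this window. A match is a description of the letters and not of binding. Capitals mark the motifs.
SP5: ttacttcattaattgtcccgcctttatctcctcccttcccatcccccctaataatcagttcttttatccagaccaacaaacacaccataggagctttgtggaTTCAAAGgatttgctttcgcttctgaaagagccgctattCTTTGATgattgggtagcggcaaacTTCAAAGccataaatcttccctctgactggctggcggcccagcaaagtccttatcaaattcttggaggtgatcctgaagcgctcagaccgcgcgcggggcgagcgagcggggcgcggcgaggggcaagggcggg
DKK1: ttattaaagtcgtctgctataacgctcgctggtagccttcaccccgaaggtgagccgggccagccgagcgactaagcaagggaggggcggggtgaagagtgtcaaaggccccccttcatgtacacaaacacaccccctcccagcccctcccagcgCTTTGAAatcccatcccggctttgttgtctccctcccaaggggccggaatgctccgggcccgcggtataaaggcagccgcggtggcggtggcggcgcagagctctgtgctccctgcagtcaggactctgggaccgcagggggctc
FZD5: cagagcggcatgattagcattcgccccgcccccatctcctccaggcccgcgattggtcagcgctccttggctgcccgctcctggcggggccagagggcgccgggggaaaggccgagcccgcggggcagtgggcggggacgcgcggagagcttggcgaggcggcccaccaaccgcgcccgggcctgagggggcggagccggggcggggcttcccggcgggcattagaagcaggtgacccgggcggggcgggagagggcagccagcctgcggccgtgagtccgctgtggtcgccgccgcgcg

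Gene counts summed to 16617644 to 21590817 reads per library, out of 24660798 to 30732841. CDK12KO2 stood apart: across genes its log2 CPM (CPM, each gene's count relative to the scaled library size) correlated with the other 5 libraries at r = 0.917 to 0.950, whereas those 5 correlated with each other at 0.977 to 0.990. The genes were therefore tested with all 6 libraries and again without CDK12KO2, and a fold change given only once is from the fit without it. CDK12 itself had 60.8, 56.9 and 56.5 CPM in CDK12KO1 to 3, against 60.2, 48.0 and 57.1 CPM in VEC1 to 3. It did not pass the test with all 6 libraries (log2 fold change 0.08 ± 0.13 SE, edgeR adjusted p = 0.709). Nor did it pass without CDK12KO2 (log2 fold change 0.08 ± 0.09 SE, edgeR adjusted p = 0.600). Whole-gene counts do not show whether an edit broke the reading frame, so they do not check the knockout. Of 12 markers of prostate luminal epithelium, 12 were at 1 CPM or more in every library, with a sum of 8326 to 11156 CPM in CDK12KO and 9965 to 10195 CPM in VEC libraries. Markers of other cell types reached 1 CPM in every library for 0 of 4 basal genes, 1 of 6 fibroblast genes (COL1A1), 1 of 4 endothelial genes (VWF), 0 of 5 leukocyte genes and 1 of 5 neuroendocrine genes (SYP). This count passes over genes seen mainly in VEC1. The neuroendocrine genes CHGA and INSM1 had 143, 3 and 1 and 13, 0 and 0 counts in VEC1 to 3. The leukocyte gene LYZ had 44, 0 and 2 counts there. Each of these genes had 0 counts in every CDK12KO library. In bulk RNA, fewer cells of a kind and less RNA per cell cannot be told apart.

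With all 6 libraries none of the 28 tested Wnt genes passed edgeR's quasi-likelihood test at a Benjamini-Hochberg adjusted p under 0.05, where 0.596% of 15783 genes did. At an unadjusted p under 0.05 there were 6 (21.4%, against 21.7% of all genes), DESeq2 called 1 (ASCL2) and limma-voom called 0. Without CDK12KO2, 4 of the 28 passed (14.3%), against 19.1% of 16339 genes. ASCL2 was higher in CDK12KO cells, where 10.2% of all genes were called higher. FZD5, LRP6 and CSNK1A1 were lower, where 8.88% of all genes were called lower. The share of Wnt genes called was thus near or below that of all genes. The median log2 fold change, CDK12KO over VEC, was -0.03 over the 28 genes without CDK12KO2 and -0.10 with all 6 libraries, against -0.01 and 0.00 over all genes tested. In CDK12KO2, which did not enter the second fit, 4 of the 4 called genes lay on the called side of the VEC mean, as did 2952 of 3123 (94.5%) of all called genes. Both the call and the side rest on the same VEC libraries, so this is a description and no independent support.

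**Figure D1:**
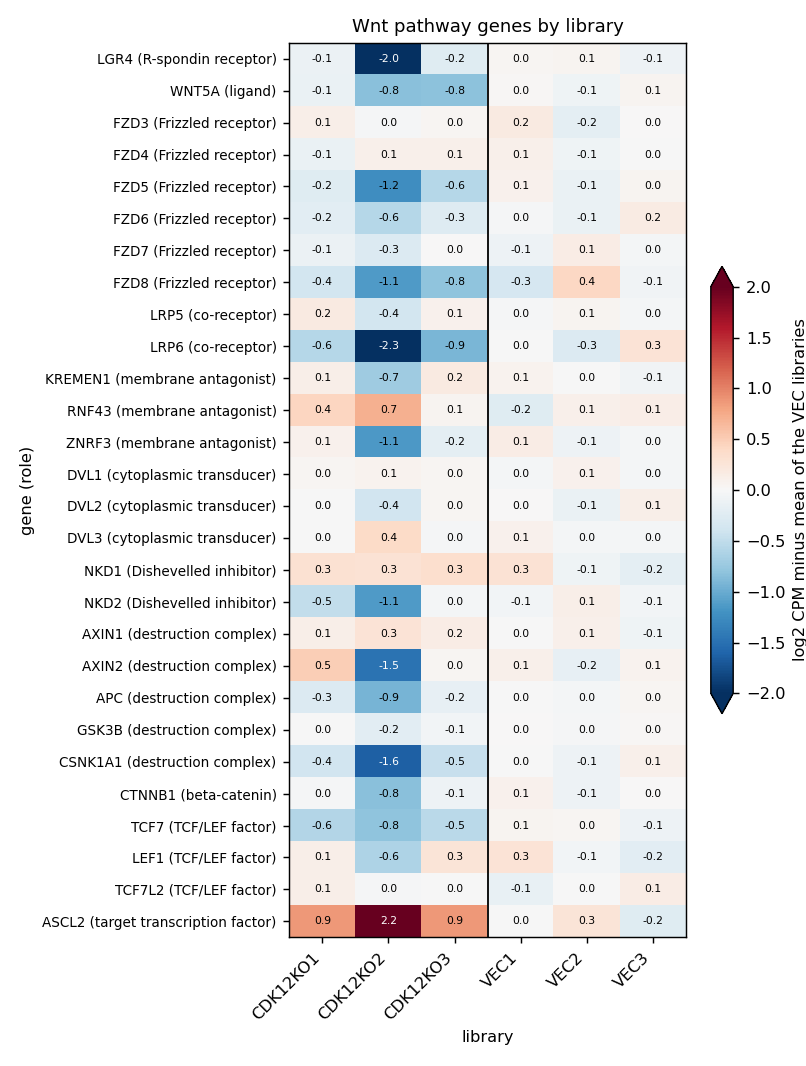
Heat map of the 28 tested Wnt genes (rows, with their roles) in each library (columns): the number and colour give log2 CPM minus the mean of the VEC libraries, with colours ending at 2 in either direction. CDK12KO2 holds the strongest colours, blue in LRP6, LGR4, CSNK1A1 and AXIN2 and red in ASCL2, while CDK12KO1 and CDK12KO3 are pale in most rows.

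CDK12KO2 lay below all other 5 libraries for 19 of the 28 Wnt genes (67.9%), above them for 5 (17.9%) and within their range for 4. Over all genes tested it lay below for 39.6% and above for 37.4%. The median difference of the 28 genes from the VEC mean was -0.59 in CDK12KO2, -0.01 in CDK12KO1 and -0.01 in CDK12KO3 on the log2 CPM scale. The 28 genes of CDK12KO1 and CDK12KO3 thus lay around the VEC level at the median, and those of CDK12KO2 mostly below it. Reads outside genes were fewest in CDK12KO2, at 3.62%, and their part in this was not tested. The CDK12KO and VEC ranges did not overlap over all 6 libraries for 11 of the 28 genes (39.3%), 2 higher and 9 lower, where 39.4% of all genes tested had ranges that did not overlap.

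**Figure D2:**
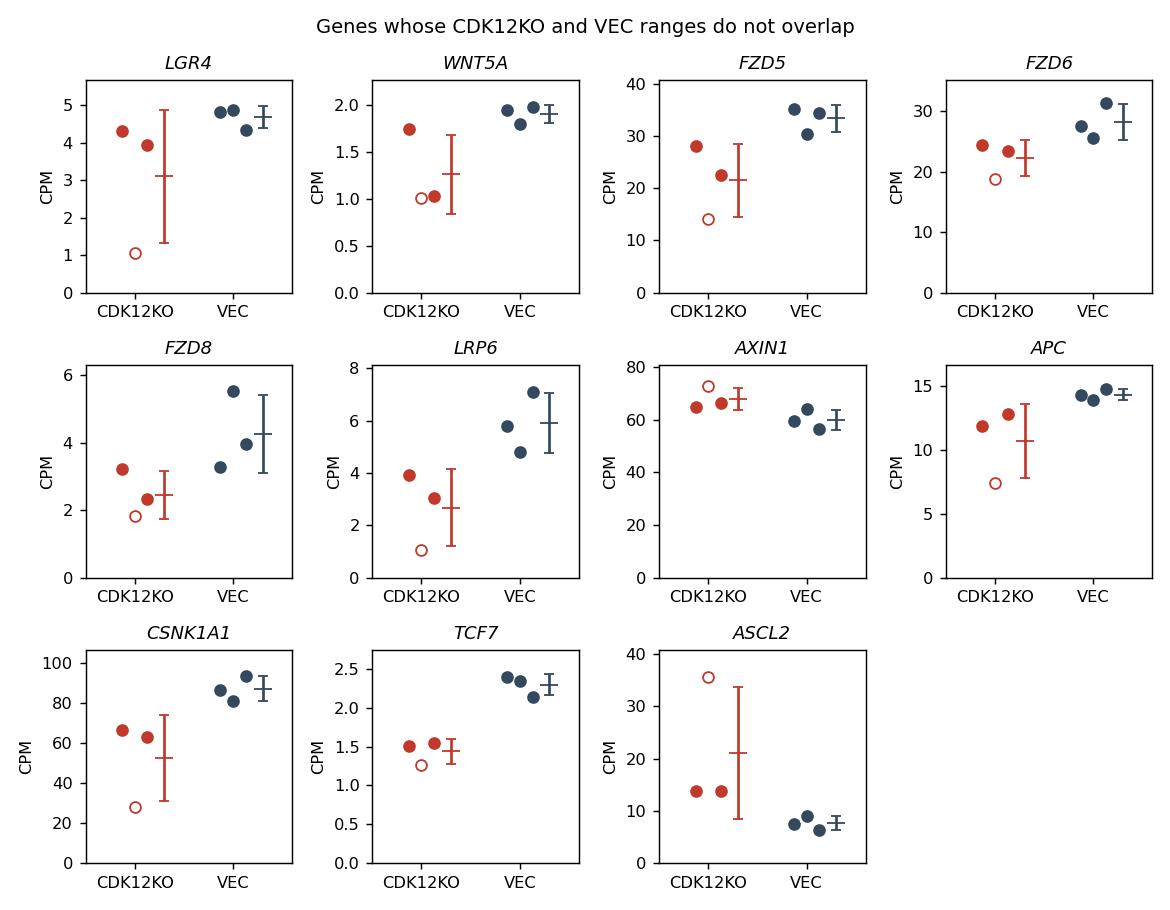
CPM of the 11 tested Wnt genes whose ranges did not overlap, CDK12KO left (red) and VEC right (dark), with 1 point per library, an open circle for CDK12KO2, and mean ± SD (n = 3 each) beside the points. The CDK12KO points lie below the VEC points except in AXIN1 and ASCL2, and the open circle is the farthest from VEC in all 11 panels.

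Of the ligands, the listed gene was WNT5A, which encodes a Wnt known mainly for signalling without beta-catenin. Its level was 1.75, 1.01 and 1.03 CPM in CDK12KO1 to 3, against 1.94, 1.79 and 1.98 CPM in VEC1 to 3. The ranges did not overlap, but CDK12KO1 lay close to VEC2 and the gene did not pass the test (log2 fold change -0.45 ± 0.34 SE without CDK12KO2 and -0.58 ± 0.32 SE with all 6 libraries, edgeR adjusted p = 0.396 and 0.292). Per length WNT5A was a minor Wnt of these cells, with 0.718 ± 0.240% of the summed CPM per kilobase of exon of the 19 Wnt genes in CDK12KO and 1.07 ± 0.118% in VEC libraries (SD, n = 3 each). WNT7B and WNT10B, which each encode a secreted Wnt, made up most of that sum. WNT7B held 38.6 ± 0.426% in CDK12KO and 43.4 ± 2.07% in VEC libraries. WNT10B held 39.6 ± 1.94% in CDK12KO and 33.8 ± 2.63% in VEC libraries. The sum itself was 23.8 ± 1.14 CPM per kilobase in CDK12KO and 24.2 ± 1.497 in VEC libraries, and its ranges overlapped. For WNT7B the shares were lower, and for WNT10B higher, in every CDK12KO library than in any VEC library, which was not tested.

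Among the 6 Frizzled receptor genes, FZD5 fell in CDK12KO cells without CDK12KO2, and FZD6 and FZD8 were lower without passing the test. FZD5 (ENSG00000163251.4) is a short gene of 6.978 kb on chromosome 2 (chr2:207762586-207769563, minus strand, GRCh38) whose receptor is known for canonical signalling in epithelia. Its level was 28.0, 14.0 and 22.4 CPM in CDK12KO1 to 3, against 35.3, 30.4 and 34.4 CPM in VEC1 to 3. All CDK12KO libraries were below all VEC libraries, CDK12KO2 by the most. Without CDK12KO2 it was 1.33-fold lower (log2 fold change -0.41 ± 0.11 SE, edgeR adjusted p = 0.0165), and with all 6 libraries the value was -0.63 ± 0.25 SE (edgeR adjusted p = 0.219). The call was lost when CDK12KO3, VEC1 or VEC3 was also left out (edgeR adjusted p = 0.327, 0.0742 and 0.0647).

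FZD6, whose receptor is known for planar polarity, had 24.4, 18.8 and 23.4 CPM in CDK12KO1 to 3, against 27.6, 25.6 and 31.4 CPM in VEC1 to 3. FZD8, whose receptor binds canonical Wnts, had 3.21, 1.82 and 2.33 CPM in CDK12KO1 to 3, against 3.28, 5.54 and 3.96 CPM in VEC1 to 3. The ranges of both genes did not overlap, although CDK12KO1 and VEC1 differed little for FZD8. Neither passed the test without CDK12KO2 (log2 fold change -0.24 ± 0.11 SE for FZD6 and -0.62 ± 0.27 SE for FZD8, edgeR adjusted p = 0.137 and 0.116), nor with all 6 libraries (-0.34 ± 0.15 SE and -0.78 ± 0.31 SE, edgeR adjusted p = 0.242 and 0.221). FZD6 passed when VEC2 was left out beside CDK12KO2 (log2 fold change -0.31, edgeR adjusted p = 0.0209). FZD3, FZD4 and FZD7 had overlapping ranges and log2 fold changes of 0.06, -0.02 and -0.06 in that fit. FZD4, a receptor also used by the ligand norrin, shares 1399 bases of exon with PRSS23 on the opposite strand, and reads in both may be counted for neither.

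With FZD1, FZD2, FZD9 and FZD10, which stand outside the list, the make-up of the family could be read per length. The sum over 10 Frizzled genes was 30.4, 27.5 and 28.1 CPM per kilobase in CDK12KO1 to 3, against 31.7, 29.8 and 31.9 in VEC1 to 3, and the ranges overlapped. Within it FZD5 held 13.7, 7.61 and 11.9% in CDK12KO1 to 3, against 16.6, 15.2 and 16.1% in VEC1 to 3. FZD1 held 14.0, 7.69 and 12.99% in CDK12KO1 to 3, against 19.3, 19.0 and 18.6% in VEC1 to 3. Both shares were lower in every CDK12KO library than in any VEC library. FZD2 held 8.66, 13.4 and 6.18% in CDK12KO1 to 3, against 2.14, 2.40 and 1.88% in VEC1 to 3. FZD9 held 15.9, 22.04 and 15.6% in CDK12KO1 to 3, against 10.5, 11.5 and 10.5% in VEC1 to 3. Both of these shares were higher in every CDK12KO library, with a similar summed level of Frizzled transcripts. FZD6 and FZD4 were among the largest contributors in both lines, with FZD6 at 19.0 ± 1.92% in CDK12KO and 22.3 ± 1.71% in VEC libraries and FZD4 at 21.0 ± 2.90% in CDK12KO and 18.8 ± 0.801% in VEC libraries (SD, n = 3 each).

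**Figure D3:**
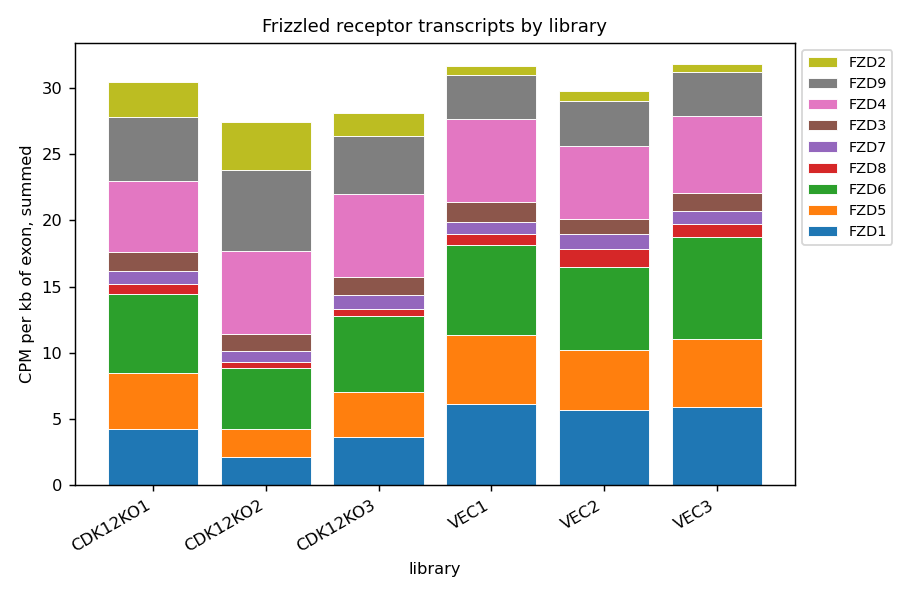
Stacked bars of CPM per kilobase of exon for the 9 Frizzled genes detected in every VEC library, by library, with CDK12KO left of VEC. The bars have similar heights, while the FZD1 and FZD5 segments are smaller and the FZD2 and FZD9 segments larger in the CDK12KO bars.

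LRP6, 1 of the 2 co-receptor genes, fell in CDK12KO cells without CDK12KO2. LRP6 (ENSG00000070018.9) spans 150.988 kb on chromosome 12 (chr12:12116025-12267012, minus strand, GRCh38). Its level was 3.92, 1.07 and 3.05 CPM in CDK12KO1 to 3, against 5.78, 4.81 and 7.09 CPM in VEC1 to 3, so the ranges did not overlap. Without CDK12KO2 it was 1.69-fold lower (log2 fold change -0.76 ± 0.23 SE, edgeR adjusted p = 0.0243), and with all 6 libraries the value was -1.12 ± 0.43 SE (edgeR adjusted p = 0.218). The call was lost when CDK12KO1, CDK12KO3, VEC1 or VEC3 was also left out (edgeR adjusted p = 0.0527, 0.243, 0.0547 and 0.121). LRP5 had 118, 80.5 and 110 CPM in CDK12KO1 to 3, against 102, 108 and 102 CPM in VEC1 to 3, with overlapping ranges. Per length LRP5 made up 98.6 ± 0.596% of the co-receptor transcripts in CDK12KO and 96.7 ± 0.699% in VEC libraries, so the co-receptor that fell was the scarce one.

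LGR4, a receptor for R-spondins, which strengthen Wnt signals, had 4.30, 1.07 and 3.93 CPM in CDK12KO1 to 3, against 4.81, 4.87 and 4.34 CPM in VEC1 to 3. Its ranges did not overlap, but CDK12KO1 lay close to VEC3 and the gene did not pass (log2 fold change -0.19 ± 0.21 SE without CDK12KO2 and -0.58 ± 0.45 SE with all 6 libraries, edgeR adjusted p = 0.582 and 0.424). LGR5, the related receptor that marks intestinal stem cells, had 0 counts in all CDK12KO libraries and 1 count over the VEC libraries.

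The antagonists showed no call in either fit. The secreted ones were near the detection limit: DKK1, an inhibitor of LRP5 and LRP6 and a beta-catenin target, had 0 counts in CDK12KO and 0, 0 and 2 counts in VEC libraries. DKK3, a Dickkopf-related protein, had 0 counts in each CDK12KO library and 3 counts in each VEC library. The DKK3 ratio CDK12KO over VEC was 0, with a 95% exact binomial interval that reached 0.499 with all 6 libraries and 0.695 without CDK12KO2. These intervals cover counting error only, and the gene was not tested. NOTUM, an enzyme that removes the lipid of Wnts, had 3, 6 and 4 counts in CDK12KO1 to 3, against 1, 1 and 0 counts in VEC1 to 3. The ratio CDK12KO over VEC was 6.41 with all 6 libraries (95% exact binomial interval 1.45 to 58.5, counting error only) and 4.80 without CDK12KO2, with an interval of 0.914 to 47.4 that includes equal levels.

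Among the membrane antagonists KREMEN1, a receptor for Dickkopf proteins, had 27.3, 15.4 and 28.6 CPM in CDK12KO1 to 3, against 26.7, 25.2 and 24.1 CPM in VEC1 to 3. RNF43 and ZNRF3, ubiquitin ligases that remove Frizzled receptors, had log2 fold changes without CDK12KO2 of 0.25 and -0.06, with edgeR adjusted p = 0.499 and 0.783. All 3 had overlapping ranges. RNF43 shares 4326 bases of exon with AC004687.2 on its own strand, so its counts may cover only part of its transcript. APCDD1, a membrane inhibitor and target gene, was untested. It had 5, 5 and 9 counts in CDK12KO1 to 3, against 13, 1 and 3 counts in VEC1 to 3, so most VEC counts came from VEC1.

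In the cytoplasm the Dishevelled genes were among the most abundant of the 35 and differed little between the lines. DVL1 had 257, 265 and 257 CPM in CDK12KO1 to 3, against 244, 267 and 244 CPM in VEC1 to 3. It held 66.5 ± 0.559% of the Dishevelled transcripts per length in CDK12KO and 66.2 ± 2.16% in VEC libraries (SD, n = 3 each). DVL2 and DVL3 also had overlapping ranges, and the log2 fold changes of the 3 genes without CDK12KO2 lay between -0.03 and 0.03. NKD1 and NKD2, which bind and inhibit Dishevelled, had log2 fold changes of 0.30 and -0.27 and did not pass (edgeR adjusted p = 0.367 and 0.662).

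Of the 5 destruction complex genes, CSNK1A1 fell without CDK12KO2 and AXIN1, AXIN2, APC and GSK3B did not pass. CSNK1A1 (ENSG00000113712.19) encodes casein kinase 1 alpha, which places the priming phosphate on beta-catenin before GSK3 acts, and it spans 59.356 kb on chromosome 5 (chr5:149492197-149551552, minus strand, GRCh38). Its level was 66.7, 27.9 and 63.2 CPM in CDK12KO1 to 3, against 86.4, 81.2 and 93.6 CPM in VEC1 to 3. All CDK12KO libraries were below all VEC libraries. Without CDK12KO2 it was 1.35-fold lower (log2 fold change -0.43 ± 0.08 SE, edgeR adjusted p = 0.000843), and the call held when any 1 of the other 5 libraries was also left out. With all 6 libraries the value was -0.73 ± 0.31 SE (edgeR adjusted p = 0.230). CSNK1A1 shares 2886 bases of exon with AC021078.1 on its own strand, and reads in both may be counted for neither.

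APC, the scaffold that presents beta-catenin, had 11.9, 7.42 and 12.8 CPM in CDK12KO1 to 3, against 14.3, 13.9 and 14.8 CPM in VEC1 to 3. AXIN1, the scaffold that holds the complex together, had 64.9, 72.7 and 66.5 CPM in CDK12KO1 to 3, against 59.4, 63.9 and 56.5 CPM in VEC1 to 3. APC was thus lower and AXIN1 higher in every CDK12KO library than in any VEC library, by margins that did not pass without CDK12KO2 (log2 fold change -0.22 ± 0.13 SE for APC and 0.13 for AXIN1, edgeR adjusted p = 0.259 and 0.297). The values with all 6 libraries were -0.42 ± 0.22 SE for APC and 0.18 ± 0.11 SE for AXIN1 (edgeR adjusted p = 0.282 and 0.333). AXIN2, a target gene widely used as a readout of beta-catenin activity, had 3.59, 0.818 and 2.59 CPM in CDK12KO1 to 3, against 2.71, 2.24 and 2.64 CPM in VEC1 to 3. Its log2 fold change was 0.28 ± 0.26 SE without CDK12KO2 and -0.10 with all 6 libraries (edgeR adjusted p = 0.505 and 0.899), and its direction turned with that library. AXIN2 shares 1316 bases of exon with AC004805.1 on its own strand, so its counts may cover only part of its transcript. GSK3B, the kinase that phosphorylates beta-catenin, differed by -0.04 and had overlapping ranges. CTNNB1, which encodes beta-catenin, had 161, 91.4 and 153 CPM in CDK12KO1 to 3, against 174, 152 and 165 CPM in VEC1 to 3. CDK12KO1 and CDK12KO3 lay within the VEC range, and the log2 fold change was -0.07 ± 0.07 SE without CDK12KO2 and -0.28 ± 0.22 SE with all 6 libraries (edgeR adjusted p = 0.554 and 0.428).

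TCF7, the factor known as TCF1, had 1.51, 1.26 and 1.55 CPM in CDK12KO1 to 3, against 2.41, 2.35 and 2.14 CPM in VEC1 to 3. The groups did not overlap and the 3 CDK12KO libraries were close together, yet at 20 to 47 counts per library the gene did not pass in either fit (log2 fold change -0.59 ± 0.30 SE without CDK12KO2 and -0.67 ± 0.25 SE with all 6, edgeR adjusted p = 0.190 and 0.215). Its share of the TCF/LEF transcripts per length was 7.86 ± 0.309% in CDK12KO and 12.0 ± 0.612% in VEC libraries (SD, n = 3 each). TCF7L2, the main such factor in many epithelia, was the largest at 50.1 ± 6.43% in CDK12KO and 46.7 ± 7.67% in VEC libraries. LEF1 followed at 37.7 ± 6.80% in CDK12KO and 37.7 ± 4.11% in VEC libraries. TCF7L2 and LEF1 had overlapping ranges and log2 fold changes of 0.05 and 0.17 without CDK12KO2. TCF7L1, known mainly as a repressor, was untested. It had 7, 5 and 8 counts in CDK12KO1 to 3, against 14, 3 and 1 counts in VEC1 to 3, so most VEC counts came from VEC1.

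ASCL2, a transcription factor of intestinal stem cells and a Wnt target, rose in CDK12KO cells without CDK12KO2 and was the only Wnt gene of the list called higher. It is a gene (ENSG00000183734.5) of 2.458 kb on chromosome 11 (chr11:2268495-2270952, minus strand, GRCh38). Its level was 13.8, 35.6 and 13.9 CPM in CDK12KO1 to 3, against 7.47, 8.96 and 6.32 CPM in VEC1 to 3. Every CDK12KO library was above every VEC library, and CDK12KO2 was far above the other CDK12KO libraries. Without CDK12KO2 it was 1.82-fold higher (log2 fold change 0.86 ± 0.16 SE, edgeR adjusted p = 0.000805), and the call held when any 1 of the other 5 libraries was also left out. With all 6 libraries the value was 1.47 ± 0.40 SE (edgeR adjusted p = 0.164), while DESeq2 gave an adjusted p of 0.0144. SP5, a target gene whose promoter is shown above, was untested. It had 7, 2 and 8 counts in CDK12KO1 to 3, against 3, 9 and 1 counts in VEC1 to 3.

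Counted together, 12 of the 35 genes are textbook beta-catenin targets: AXIN2, LEF1, TCF7, NKD1, RNF43, ZNRF3, LGR5, NOTUM, SP5, DKK1, APCDD1 and ASCL2. Of these 7 were tested, 1 was called higher and 0 lower without CDK12KO2, and their median log2 fold change was 0.25 in that fit and -0.04 with all 6 libraries. Of the other 23 genes 21 were tested, 0 were called higher and 3 lower, and the median was -0.06 without CDK12KO2 and -0.13 with all 6 libraries. The called share was 14.3% in either set, below the 19.1% of all genes, so the counts do not set the targets apart. No target gene of the list other than ASCL2 passed in either fit.

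**Figure D4:**
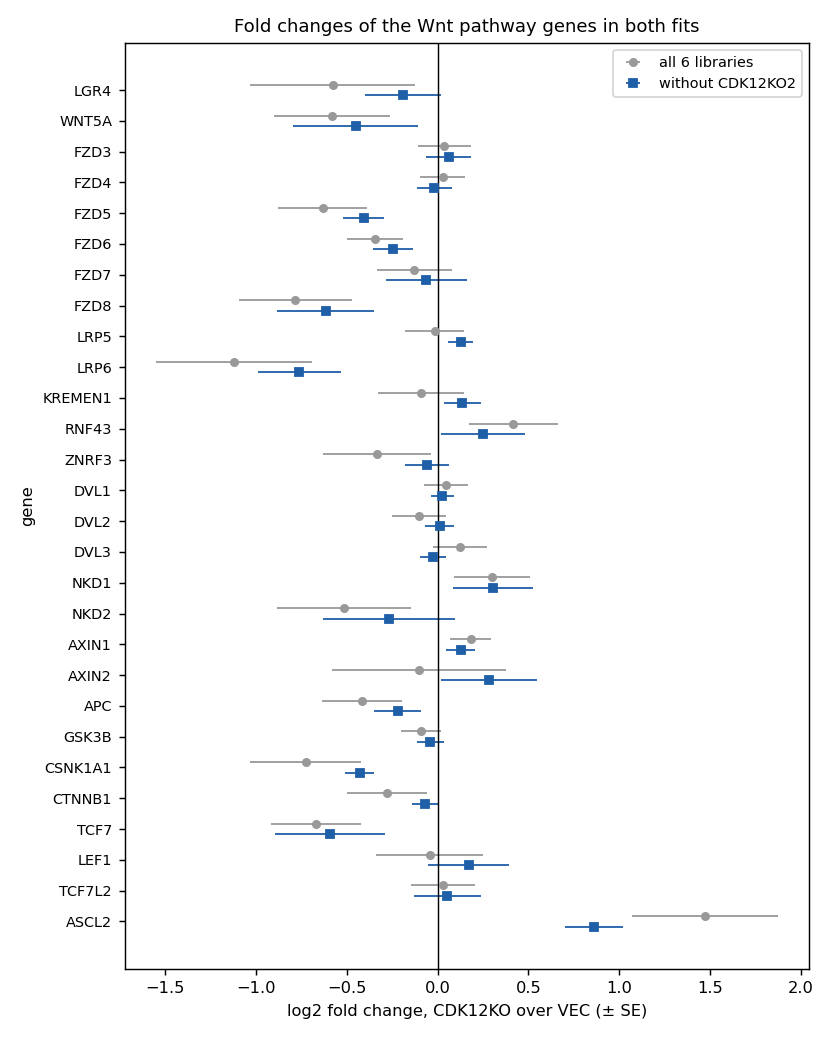
Log2 fold change, CDK12KO over VEC, with its SE, for the 28 tested Wnt genes (rows in order of role), with all 6 libraries (grey circles) and without CDK12KO2 (blue squares). Most squares lie nearer to 0 than their circles and have shorter bars, and ASCL2 at 0.86 and LRP6 at -0.76 are the farthest squares from 0.

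Per length, the most abundant of the 35 genes were DVL1 at 68.1 ± 1.22 CPM per kilobase in CDK12KO and 65.9 ± 3.51 in VEC libraries, and DVL3 at 21.2 ± 3.49 in CDK12KO and 19.5 ± 0.966 in VEC libraries. LRP5 stood at 16.7 ± 3.22 in CDK12KO and 16.9 ± 0.557 in VEC libraries, and DVL2 at 13.1 ± 2.02 in CDK12KO and 14.1 ± 1.18 in VEC libraries. CTNNB1 stood at 11.3 ± 3.18 in CDK12KO and 13.7 ± 0.902 in VEC libraries (SD, n = 3 each). ASCL2 moved up this order, at 11.4 ± 6.79 CPM per kilobase in CDK12KO and 4.09 ± 0.714 in VEC libraries, with its CDK12KO spread set by CDK12KO2. CSNK1A1 stood at 6.82 ± 2.78 in CDK12KO and 11.3 ± 0.806 in VEC libraries. The mean levels of WNT5A, TCF7, NKD1, NKD2, AXIN2, RNF43 and LRP6 were in both lines below that of LEF1, which stood at 0.700 ± 0.213 CPM per kilobase in CDK12KO and 0.724 ± 0.130 in VEC libraries.

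A wider list of 105 other Wnt pathway genes in 7 groups set these values in context. With all 6 libraries 62 were tested and edgeR called 0, with 14 at an unadjusted p under 0.05 (22.6%, against 21.7% of all genes), while DESeq2 called 7 and limma-voom 0. Without CDK12KO2, 63 were tested, and 8 were called higher and 8 lower (25.4%, against 19.1% of all genes). The median log2 fold change was -0.04, against -0.01 over all genes. By group, the calls were 4 of 6 other receptors and R-spondins, 4 of 8 other target genes, 4 of 13 nuclear partners of beta-catenin, 2 of 9 Wnt ligands and secretion genes, 1 of 3 extracellular antagonists, 1 of 17 cytoplasmic regulators and 0 of 7 genes of the planar polarity arm.

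**Figure D5:**
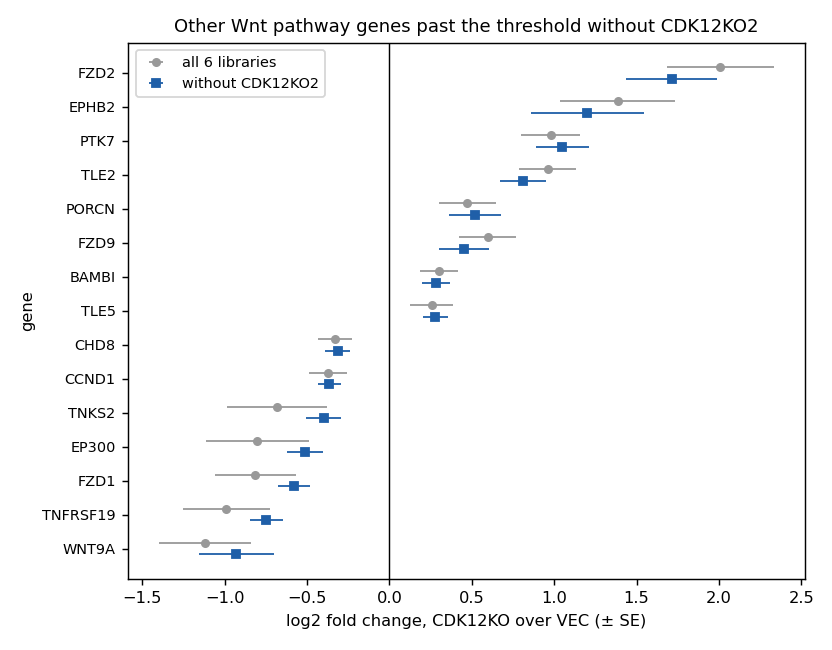
Log2 fold change, CDK12KO over VEC, with its SE, for 15 of the 16 other Wnt genes past the threshold without CDK12KO2, in that fit (blue squares) and with all 6 libraries (grey circles). FZD2 is the highest and WNT9A the lowest; SFRP1, untested with all 6 libraries, is not drawn.

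The receptors of the wider list moved both ways. FZD2, a Frizzled receptor, had 5.57, 7.80 and 3.67 CPM in CDK12KO1 to 3, against 1.43, 1.51 and 1.26 CPM in VEC1 to 3. PTK7, a co-receptor of the planar polarity arm, had 13.5, 10.7 and 12.0 CPM in CDK12KO1 to 3, against 6.70, 5.21 and 6.43 CPM in VEC1 to 3. Both rose without CDK12KO2 (log2 fold change 1.71 ± 0.28 SE for FZD2 and 1.05 ± 0.16 SE for PTK7, edgeR adjusted p = 0.000235 and 0.000155), and FZD2 had the lowest edgeR adjusted p of the list with all 6 libraries (0.0540, log2 fold change 2.01). FZD1 fell, with 29.6, 14.7 and 25.4 CPM in CDK12KO1 to 3, against 42.5, 39.4 and 41.3 CPM in VEC1 to 3 (log2 fold change -0.58 ± 0.10 SE, edgeR adjusted p = 0.000445). Singled out after its values were seen, FZD9 was the other Frizzled gene that rose (log2 fold change 0.45 ± 0.15 SE, edgeR adjusted p = 0.0428). The FZD9 call was lost when CDK12KO1, CDK12KO3, VEC1 or VEC3 was also left out (edgeR adjusted p = 0.323, 0.143, 0.0908 and 0.0875), and those of FZD2, PTK7 and FZD1 held in all 5 such fits. PTK7, FZD1 and FZD9 had log2 fold changes with all 6 libraries of 0.98, -0.82 and 0.60 (edgeR adjusted p = 0.0782, 0.184 and 0.179).

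Of the other target genes, TNFRSF19 and CCND1 fell. TNFRSF19, which encodes the receptor TROY, had 58.8, 29.9 and 55.9 CPM in CDK12KO1 to 3, against 106, 79.9 and 102 CPM in VEC1 to 3 (log2 fold change -0.75 ± 0.10 SE, edgeR adjusted p = 3.6e-05). CCND1, which encodes cyclin D1, had 166, 160 and 164 CPM in CDK12KO1 to 3, against 225, 206 and 202 CPM in VEC1 to 3 (log2 fold change -0.37 ± 0.07 SE, edgeR adjusted p = 0.000887). For CCND1, unlike TNFRSF19, CDK12KO2 lay beside the other CDK12KO libraries. EPHB2 and BAMBI, named after their values were seen, rose (log2 fold change 1.201 and 0.28, edgeR adjusted p = 0.0189 and 0.0246), so the 4 called target genes divided evenly between the directions. The EPHB2 call was lost without CDK12KO1 or VEC3 (edgeR adjusted p = 0.399 and 0.0603), and the BAMBI call without CDK12KO1, CDK12KO3 or VEC3 (edgeR adjusted p = 0.170, 0.150 and 0.0938). TNFRSF19, CCND1, EPHB2 and BAMBI had log2 fold changes with all 6 libraries of -0.99, -0.37, 1.38 and 0.30 (edgeR adjusted p = 0.160, 0.191, 0.150 and 0.218). MYC, the most abundant target gene of that group per length, stood at 53.4 ± 10.9 CPM per kilobase in CDK12KO and 56.9 ± 1.29 in VEC libraries (SD, n = 3 each).

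Among the nuclear partners, TLE2 and TLE5 rose and EP300 and CHD8 fell. TLE2, a co-repressor bound by TCF factors, had 15.4, 19.8 and 14.6 CPM in CDK12KO1 to 3, against 8.60, 9.07 and 7.86 CPM in VEC1 to 3 (log2 fold change 0.81 ± 0.14 SE, edgeR adjusted p = 0.000472). TLE5, a short relative that antagonises such co-repressors, had 182, 168 and 175 CPM in CDK12KO1 to 3, against 138, 166 and 136 CPM in VEC1 to 3 (log2 fold change 0.28 ± 0.08 SE, edgeR adjusted p = 0.0165). Its margin over VEC2 was small, and the call was lost when CDK12KO1, CDK12KO3, VEC1 or VEC3 was also left out (edgeR adjusted p = 0.180, 0.0905, 0.0813 and 0.0709). EP300, a histone acetyltransferase and co-activator of beta-catenin, had 42.2, 17.8 and 38.8 CPM in CDK12KO1 to 3, against 61.4, 47.4 and 63.9 CPM in VEC1 to 3 (log2 fold change -0.51 ± 0.11 SE, edgeR adjusted p = 0.00285). CHD8, a chromatin remodeller known to bind beta-catenin, had 59.2, 56.2 and 58.8 CPM in CDK12KO1 to 3, against 74.4, 73.8 and 71.0 CPM in VEC1 to 3 (log2 fold change -0.31 ± 0.08 SE, edgeR adjusted p = 0.00632). The EP300 call was lost without CDK12KO3 (edgeR adjusted p = 0.0593), and the CHD8 call without CDK12KO1 or CDK12KO3 (edgeR adjusted p = 0.0788 and 0.106). TLE2, TLE5, EP300 and CHD8 had log2 fold changes with all 6 libraries of 0.96, 0.26, -0.80 and -0.33 (edgeR adjusted p = 0.0747, 0.272, 0.219 and 0.187).

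Outside the cell, WNT9A and SFRP1 fell. WNT9A, a secreted Wnt, had 2.36, 1.76 and 3.52 CPM in CDK12KO1 to 3, against 5.42, 5.77 and 5.49 CPM in VEC1 to 3 (log2 fold change -0.93 ± 0.23 SE, edgeR adjusted p = 0.00742). SFRP1, a secreted decoy that binds Wnts, was at 1, 2 and 1 counts in CDK12KO1 to 3, against 9, 11 and 13 counts in VEC1 to 3. Without CDK12KO2 the ratio CDK12KO over VEC was 0.0832 (95% exact binomial interval 0.00967 to 0.325, counting error only; edgeR adjusted p = 0.0112). The SFRP1 call was lost without CDK12KO1 or CDK12KO3 (edgeR adjusted p = 0.151 and 0.150), and without VEC2 or VEC3 the gene was no longer tested. The SFRP1 ratio with all 6 libraries was 0.119 (interval 0.0307 to 0.336). The WNT9A call was lost without CDK12KO1 (edgeR adjusted p = 0.160). PORCN, the enzyme that attaches the lipid to Wnts, named after its values were seen, rose in that fit (log2 fold change 0.52, edgeR adjusted p = 0.0247), but not when CDK12KO1, CDK12KO3, VEC1 or VEC3 was also left out (edgeR adjusted p = 0.179, 0.123, 0.0953 and 0.0761). In the cytoplasm TNKS2, a tankyrase that marks AXIN for destruction, had 33.6, 15.0 and 33.2 CPM in CDK12KO1 to 3, against 44.6, 37.6 and 49.4 CPM in VEC1 to 3. It fell without CDK12KO2 (log2 fold change -0.40 ± 0.11 SE, edgeR adjusted p = 0.0133), but not when CDK12KO1, CDK12KO3 or VEC3 was also left out (edgeR adjusted p = 0.0851, 0.115 and 0.0874). WNT9A, PORCN and TNKS2 had log2 fold changes with all 6 libraries of -1.12, 0.47 and -0.68 (edgeR adjusted p = 0.145, 0.214 and 0.239). The most abundant genes per length of the remaining groups did not pass: CSNK1G2, a casein kinase, stood at 44.5 ± 2.15 CPM per kilobase in CDK12KO and 38.8 ± 2.19 in VEC libraries. KREMEN2, a receptor for Dickkopf proteins, stood at 18.5 ± 4.64 in CDK12KO and 14.3 ± 1.37 in VEC libraries. SCRIB, a polarity scaffold, stood at 41.7 ± 7.33 in CDK12KO and 37.5 ± 3.99 in VEC libraries (SD, n = 3 each).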

How the data were processed

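RNA-seq of 3 CDK12KO and 3 VEC libraries of C4-2 cells was analysed. Per the labels' protocols, RNA came from an RNeasy kit and libraries from a SMARTer kit; FastQC, STAR and GRCh38 are named per the submitters' processing notes, with versions not given in the sources used here. The deposited files hold whole-number read counts per gene, not normalised by the authors, in STAR's layout. The unstranded column was used, since the stranded columns had sums in ratios of 1.02 to 1.04, so sense and antisense reads of a locus cannot be separated. The 4 summary rows were left out of all totals and fits. In them 11.1 to 14.4% of reads were ambiguous, 3.62 to 7.45% outside genes, 6.49 to 8.73% multimapping and 4.07 to 5.51% unmapped.

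Counts were filtered with filterByExpr, scaled with TMM and tested with edgeR 4.0.16 (R 4.3.3; glmQLFit with robust = TRUE, glmQLFTest), with Benjamini-Hochberg adjustment over all tested genes and a threshold of 0.05. CPM use TMM-scaled library sizes, and log2 CPM a prior count of 2. Levels per kilobase use the union of exons of GENCODE 29, in which 96.6% of the genes tested with all 6 libraries were found. That union includes exon shared with other genes, so levels and family shares of such genes may be understated. Shared exon was read from GENCODE 29 too, and whether the counts used the same annotation was not checked. Intervals cover counting error only, since reads without molecular identifiers are not independent molecules. No 2 libraries of a group agreed within sampling noise (lowest chi-square per degree of freedom 3.27). The test scripts were tested on simulated data.

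The 35 genes, the 105 other Wnt genes and the markers were chosen with earlier results of these data known. Values per library are given for those of the 35 genes that passed the threshold, for those at a mean of 1 CPM or more whose groups did not overlap, and for a few others. From the wider list the 12 smallest adjusted p without CDK12KO2 and the most abundant gene of each group were named. Alternatives were RLE and upper-quartile factors, no filter, DESeq2 1.42.0, limma-voom (limma 3.58.1), a replicate block and leaving out each library.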

Additional observations from a re-analysis of the deposited data

How the results depend on the processing

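With all 6 libraries, edgeR called 94 of all genes, 363 with no filter on low counts, 5 with a replicate block and 980 with DESeq2, and 4 to 3123 when a library was left out. The highest of these came without CDK12KO2 and the lowest without VEC1 or VEC2. DESeq2 called 1 Wnt gene of the 35 (1 higher) and, of the wider list, 4 higher and 3 lower, and no filter gave 3 higher. Leaving out a library gave 0 to 4 Wnt genes called (0 to 1 higher, 0 to 3 lower) and, of the wider list, 0 to 8 higher and 0 to 8 lower. Without CDK12KO2, leaving out a further library gave 2 to 5 Wnt genes (1 to 4 lower), 1134 to 4703 of all genes, and 3 to 13 higher and 4 to 15 lower of the wider list. Where 1 CDK12KO library remained, it was assumed to vary like the VEC libraries.

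Replicate numbers were not shown to pair the libraries. The deviations of same-numbered libraries from their group means correlated at 0.141, 0.198 and 0.0833, although every library correlated best with its own number, a hint from the data and not the design. With the replicate block and without CDK12KO2, 7 Wnt genes were called (3 higher, 4 lower): ASCL2, FZD5, LRP6 and CSNK1A1, and in addition FZD6 (-0.31), LRP5 (0.15) and AXIN1 (0.17), with edgeR adjusted p = 0.00543, 0.0242 and 0.0341. The same fit called 5540 of all genes, and 13 higher and 17 lower of the wider list.

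Of 644 comparisons of a single Wnt gene with an alternative, 599 kept direction and side of the threshold, 7 lost the threshold, 9 gained it and 29 reversed. None of the genes that reversed had passed the edgeR test in the fit concerned. Without CDK12KO2, FZD4 was at 0.00291 with upper-quartile factors, and the replicate block gave FZD3 -0.0302, FZD7 0.00805 and DVL2 -0.0502. The other 25 came from leaving out a library. With all 6 libraries the log2 fold changes then ran from -0.0542 to 0.129 for FZD3, -0.0190 to 0.102 for FZD4, -0.12 to 0.13 for LRP5, -0.24 to 0.14 for KREMEN1, -0.179 to 0.0123 for DVL2, -0.0256 to 0.198 for DVL3, -0.55 to 0.28 for AXIN2, -0.21 to 0.17 for LEF1 and -0.0417 to 0.105 for TCF7L2. Without CDK12KO2 they ran from -0.0312 to 0.166 for FZD3, -0.131 to 0.0843 for FZD4, -0.125 to 0.00791 for FZD7, -0.212 to 0.0750 for ZNRF3, -0.0516 to 0.0776 for DVL2, -0.0469 to 0.0263 for DVL3 and -0.0152 to 0.137 for TCF7L2. CSNK1A1 and ASCL2 stayed called under all 11 alternatives without CDK12KO2, with log2 fold changes of -0.48 to -0.37 and 0.75 to 0.99. The causes of these shifts were not tested. With 0 to 14 counts in any library, 7 genes were too shallow to test.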

Other observations

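The TLE family, whose co-repressors TCF factors bind in the absence of beta-catenin, differed in make-up between the lines per length. TLE1 held 7.92 ± 1.28% of the family in CDK12KO and 11.2 ± 1.65% in VEC libraries, and TLE2 held 7.35 ± 1.24% in CDK12KO and 4.26 ± 0.0828% in VEC libraries (SD, n = 3 each). TLE3, which did not pass the test in either fit, held 25.5 ± 2.08% in CDK12KO and 28.7 ± 1.197% in VEC libraries. Its level was 14.2 ± 1.08 CPM per kilobase in CDK12KO and 14.2 ± 0.570 in VEC libraries. TLE5, which antagonises the co-repressors, held the largest share, 59.2 ± 1.94% in CDK12KO and 55.8 ± 2.83% in VEC libraries. The shares of TLE3 and TLE5 overlapped between the lines. The summed level of the 5 genes was 55.8 ± 0.616 CPM per kilobase in CDK12KO and 49.5 ± 3.49 in VEC libraries. TLE5 alone stood at 33.0 ± 1.28 in CDK12KO and 27.7 ± 3.14 in VEC libraries.

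ASCL2 lies on chromosome 11, where the next tested gene on the left was the growth factor gene IGF2. Of the 3 nearest tested genes on either side, CTSD, MRPL23 and CD81 also rose without CDK12KO2. Over all genes tested in that fit 10.2% were called higher, and whether the neighbours moved together was not tested. CTSD, a lysosomal protease, averaged 251 CPM in CDK12KO and 107 CPM in VEC libraries (log2 fold change 0.41 ± 0.08 SE, edgeR adjusted p = 0.000947). MRPL23, a mitochondrial ribosomal protein, averaged 255 CPM in CDK12KO and 117 CPM in VEC libraries (log2 fold change 0.36 ± 0.09 SE, edgeR adjusted p = 0.00984). CD81, a tetraspanin, averaged 423 CPM in CDK12KO and 263 CPM in VEC libraries (log2 fold change 0.28 ± 0.07 SE, edgeR adjusted p = 0.00565). IGF2 itself was near the detection limit, at 0.438 CPM in CDK12KO and 0.691 CPM in VEC libraries. The means include CDK12KO2, and the fold changes do not.

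Beside FZD5, the next tested gene on the left, CCNYL1, fell as well (log2 fold change -0.66 ± 0.13 SE, edgeR adjusted p = 0.00154). Of the 3 nearest tested genes on either side of LRP6, 0 passed the test. Of those of CSNK1A1, 1 passed, ENSG00000230551, for which no symbol was matched and which was lower (log2 fold change -0.54 ± 0.17 SE, edgeR adjusted p = 0.0321). It lies within the CSNK1A1 span and may be AC021078.1, named above as sharing exon with CSNK1A1, which was not checked. Over all genes tested without CDK12KO2, 8.88% were called lower and 19.1% in either direction.

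Across the 28 tested Wnt genes, which share their libraries, log2 fold change and gene span had a Spearman's rho of 0.01 with all 6 libraries and 0.10 without CDK12KO2. Over 15250 and 15771 genes it was -0.27 and -0.15, values that describe genes and not replicates.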
